A study of Mus musculus with 17 samples.

Results

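The 10 genes described here encode receptors by which myeloid cells bind antibody, 2 signalling adaptors, an activating and inhibitory receptor pair, and 2 macrophage receptors. They are Fcer1g and Tyrobp (adaptors), Fcgr1, Fcgr2b, Fcgr3 and Fcgr4 (Fc gamma receptors), Pilra and Pilrb1 (paired receptors), and Emr1 and Csf1r (macrophage receptors). Emr1 is the name the array uses for Adgre1, the F4/80 antigen. A probe belonged to the set when its gene name on the array equalled one of these 10 names. This gave 16 of 39429 probes and 10 of 30199 gene names, and 14 of the 16 probes and all 10 genes passed the filter on dim probes. The names were picked by a choice made with levels of these genes on these arrays known, so their levels and calls are a description of the set.

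Cells were DA1-3b, a Bcr-Abl+ mouse leukaemia line, labelled as strain C3H eOuJ. All groups carried a plasmid for a form of p65/RelA, the NF-kB subunit that binds DNA through its N-terminal part and activates transcription through its C-terminal part. The forms were wild-type p65 (WT, n = 4 arrays), the non-cleavable point mutant D361E (n = 4), residues 1-361 (n = 3), residues 362-549 (n = 3), and both fragments together, labelled 1-361+362-549 (n = 3). WT is the reference throughout, and cells with the empty plasmid were not analysed here. The labels do not say whether a form was carried by 1 clone or by a pool, nor whether arrays came from separate cultures, so p-values measure the spread between arrays, which may be technical. Precision is limited by how few arrays each group has.

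Most activating Fc receptors bind antibody outside the cell and have no signalling motif of their own. They pair with a small adaptor, the FcR gamma chain encoded by Fcer1g. Its immunoreceptor tyrosine-based activation motif (ITAM) recruits the kinase Syk once phosphorylated. DAP12, encoded by Tyrobp, is an ITAM adaptor of TREM and Pilrb receptors. Fcgr2b and Pilra carry an inhibitory motif (ITIM) instead, which recruits phosphatases, and the balance of activating and inhibitory partners sets how strongly macrophages, neutrophils and mast cells react to immune complexes.

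The probe sequences matter here because 2 of the genes are close copies and because 1 probe covers part of a signalling motif. The Pilra and Pilrb1 probes below share a stretch of 40 bases in which 34 are identical. Capitals mark the 6 bases of that stretch that differ, and they lie at chr5:138276560-138276619 and chr5:138298405-138298464 (mm9, minus strand as listed).
Pilra probe: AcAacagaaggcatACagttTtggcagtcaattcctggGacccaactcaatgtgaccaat
Pilrb1 probe: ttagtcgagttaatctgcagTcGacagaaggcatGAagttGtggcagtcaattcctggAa
The probe of a further copy, Pilrb2, matched the same Pilra probe at 46 of 51 bases and the Pilrb1 probe at 41 of 49. At these probes, transcripts of another copy cannot be told apart from those of the probe's own gene. The printed Pilra probe is probe 2, while the brightest, probe 4, stands for the gene below. No such overlap was found for Pilra probes 3 and 4, and their match to Pilrb1 or Pilrb2 transcripts was not worked out. The Tyrobp probe spans chr7:31200651-31202378 (mm9), a listed distance longer than its 60 bases, so it crosses at least 1 intron. Its capitals mark the codons from a tyrosine to the leucine 3 codons further on in an open frame, the spacing within 1 unit of an ITAM. An ITAM is built of a pair of such units, and the probe ends before another.
Tyrobp probe: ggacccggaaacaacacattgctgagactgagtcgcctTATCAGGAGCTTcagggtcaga
The Fcgr3 probe, at chr1:172984129-172984188 (mm9), is shown because Fcgr3 was not called in any contrast, unlike its neighbours Fcgr2b and Fcgr4. The Fc-binding domains of Fcgr2b and Fcgr3 are close in sequence in the mouse, and whether this probe also binds Fcgr2b transcript was not tested.
Fcgr3 probe: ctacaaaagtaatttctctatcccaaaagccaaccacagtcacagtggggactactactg

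Levels are log2 of the processed signal minus the 75th percentile of each array, so 0 is the brightness of the probe at that percentile, and differences are log2 ± SE. That percentile lay between 635.8 and 1214 intensity units, and arrays of the same group had correlations of 0.966 to 0.995 over genes, which are not independent replicates. The 1 Rela probe averaged from 4.74 to 4.86 over the 5 groups, and which part of Rela it covers was not worked out, so it does not check the constructs. A gene is called at an adjusted p under 0.05 over 15258 genes (limma, Benjamini-Hochberg). Among macrophage markers, Adgre4, C1qc, Cd163, Mertk, Mrc1 and Msr1 were not well above background on any array of any group, and 6 to 8 of the 19 on the array were so on all arrays of a group. In bulk RNA, fewer cells of a type and less RNA per cell cannot be told apart.

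Across the constructs the set did not move as 1 block. An F-test for any difference from WT called 8 of the 10 genes, beside 8.9% of all genes, and Fcgr3 (adjusted p = 0.581) and Csf1r (0.378) were not. The mean level was lowest in 1-361+362-549 for 8 of the 10 genes, and highest in D361E for 5. The gap to the next lowest group was not called for Pilra, Pilrb1 and Csf1r. The gap below D361E was called for Fcgr2b alone. The range of group means was widest for Fcer1g, at 7.55 log2 units, and narrowest for Fcgr3, at 0.70. Among the 4 WT arrays replicate 1 was the lowest for 8 of the 10 genes, and replicate 4 was the highest for 5. That spread within WT enters every difference from WT.

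**Figure D1:**
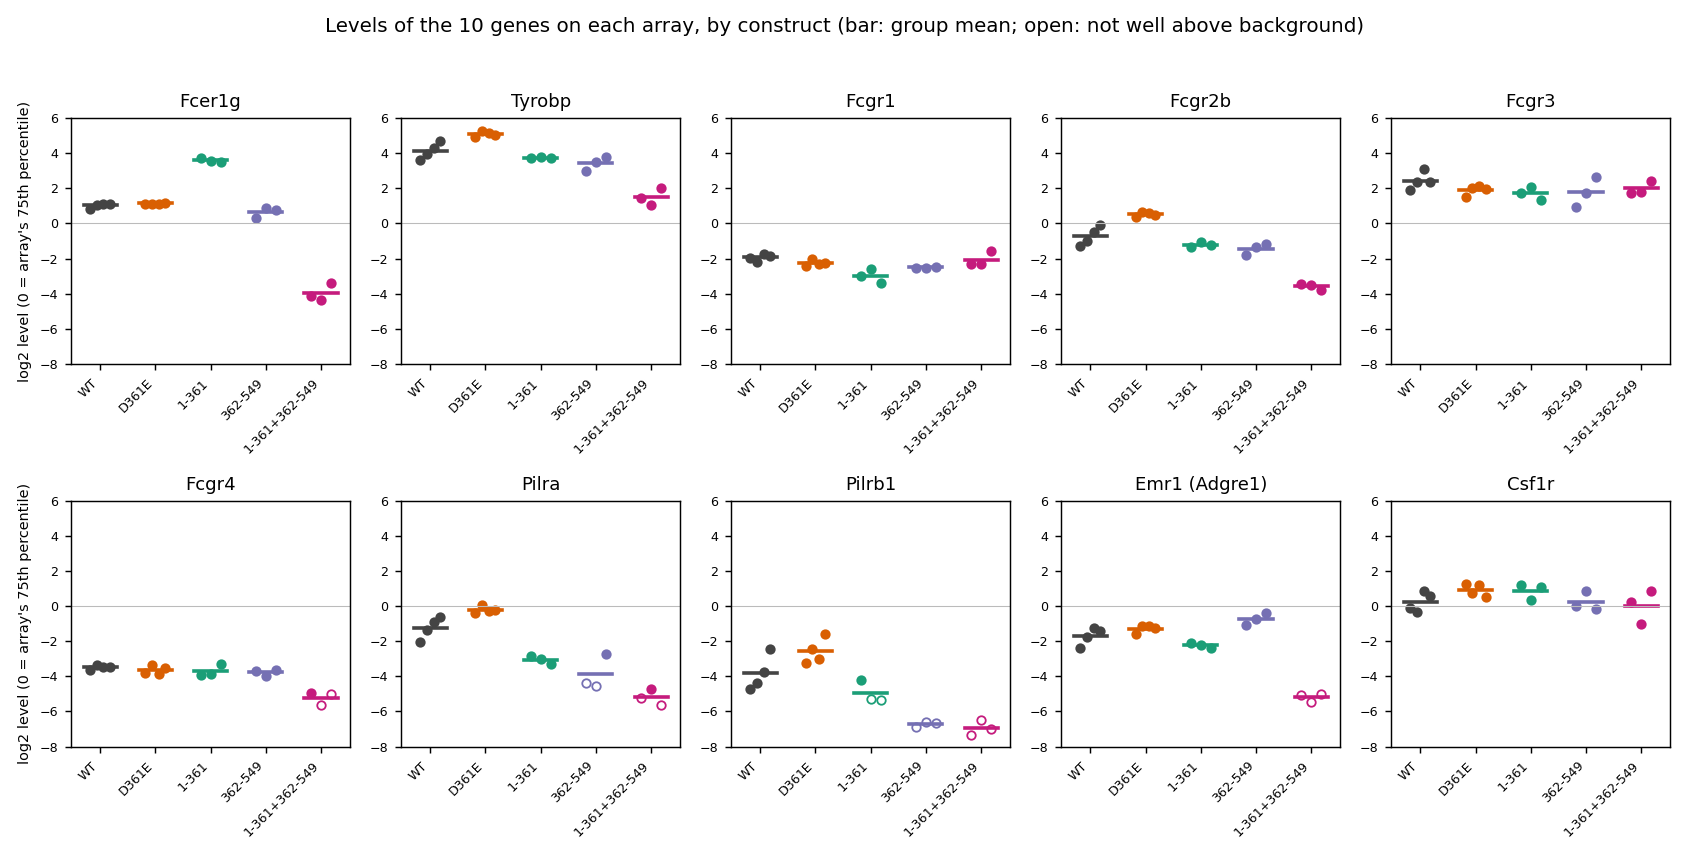
Log2 level of the brightest probe of each of the 10 genes (y axis, 0 is the 75th percentile of the array) by construct (x axis), with 1 point per array, a bar at the group mean and open points where the probe was not well above background. Fcer1g runs from 3.59 in 1-361 to -3.95 in 1-361+362-549, while the 5 groups of Fcgr3 and of Csf1r overlap.

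Fcer1g, the gamma chain shared by Fc gamma receptors, the IgE receptor and several lectins, was high with the N-terminal fragment and low when both fragments were present. Its level was 0.83, 1.06, 1.11 and 1.11 on the WT arrays and 1.12, 1.13, 1.13 and 1.17 on the D361E arrays. It was 3.72, 3.57 and 3.49 with 1-361, and 0.33, 0.87 and 0.78 with 362-549. With 1-361+362-549 it was -4.11, -4.38 and -3.37, all still well above background. The 1-361 arrays lay above every other array and the 1-361+362-549 arrays below every other array, with WT, D361E and 362-549 between them.

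Against WT, Fcer1g differed by 2.57 ± 0.20 with 1-361 (5.92-fold higher, adjusted p = 3.27e-06) and by -4.98 ± 0.20 with both fragments (31.6-fold lower, 3.71e-10). The line with both fragments also lay below each fragment alone, by -7.55 ± 0.21 against 1-361 (187-fold lower, adjusted p = 6.86e-12) and -4.61 ± 0.21 against 362-549 (24.5-fold lower, 2.52e-09). D361E differed from WT by 0.11 ± 0.18 (adjusted p = 1.00) and 362-549 by -0.37 ± 0.20 (0.685), neither called. Within the slides that held both groups, 1-361 minus WT was 2.38 and 2.74, and 1-361+362-549 minus WT was -5.21 on the 1 such slide. With slide as a block these differences were 2.49 and -5.00 (adjusted p = 0.000799 and 5.78e-06). All 7 called Fcer1g contrasts kept their call in every alternative run, but the sizes moved: under normexp, both fragments differed by -3.36 from WT, by -5.96 from 1-361 and by -3.10 from 362-549.

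Tyrobp, the DAP12 adaptor of TREM and Pilrb receptors, took another order over the constructs. Its level was 3.62, 3.94, 4.27 and 4.71 in WT, and 4.93, 5.23, 5.15 and 5.02 in D361E, so D361E lay above all WT arrays. It was 3.74, 3.81 and 3.69 with 1-361, 2.99, 3.52 and 3.75 with 362-549, and 1.45, 1.04 and 1.99 with both fragments. The last 3 arrays lay below every other array, and the single fragments overlapped with WT.

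With both fragments Tyrobp differed from WT by -2.64 ± 0.26 (6.24-fold lower, adjusted p = 8.85e-06). It differed from D361E by -3.59 ± 0.26 (12.0-fold lower, 2.68e-07), from 1-361 by -2.25 ± 0.27 (8.30e-05) and from 362-549 by -1.93 ± 0.27 (0.000293). D361E was 0.95 ± 0.24 above WT, which was not called (adjusted p = 0.140). Against D361E both single fragments were called lower, 1-361 at -1.34 ± 0.26 (0.0163) and 362-549 at -1.66 ± 0.26 (0.00258). Those 2 calls ended with slide as a block (adjusted p = 0.198 and 0.0971), as did that of both fragments against 362-549 (0.0778). The call of 1-361 against D361E also ended without any 1 of 4 arrays, D361E replicate 2 and each 1-361 replicate, with differences of -1.39 to -1.25 over the alternatives. The difference from WT was -2.53 with the block (adjusted p = 0.0053) and -2.58 on the 1 slide that held both groups.

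Set side by side, 1-361 minus D361E was 2.46 ± 0.20 for Fcer1g (adjusted p = 5.39e-06) and -1.34 ± 0.26 for Tyrobp (0.0163). The difference between the changes of the 2 adaptors was not tested.

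**Figure D2:**
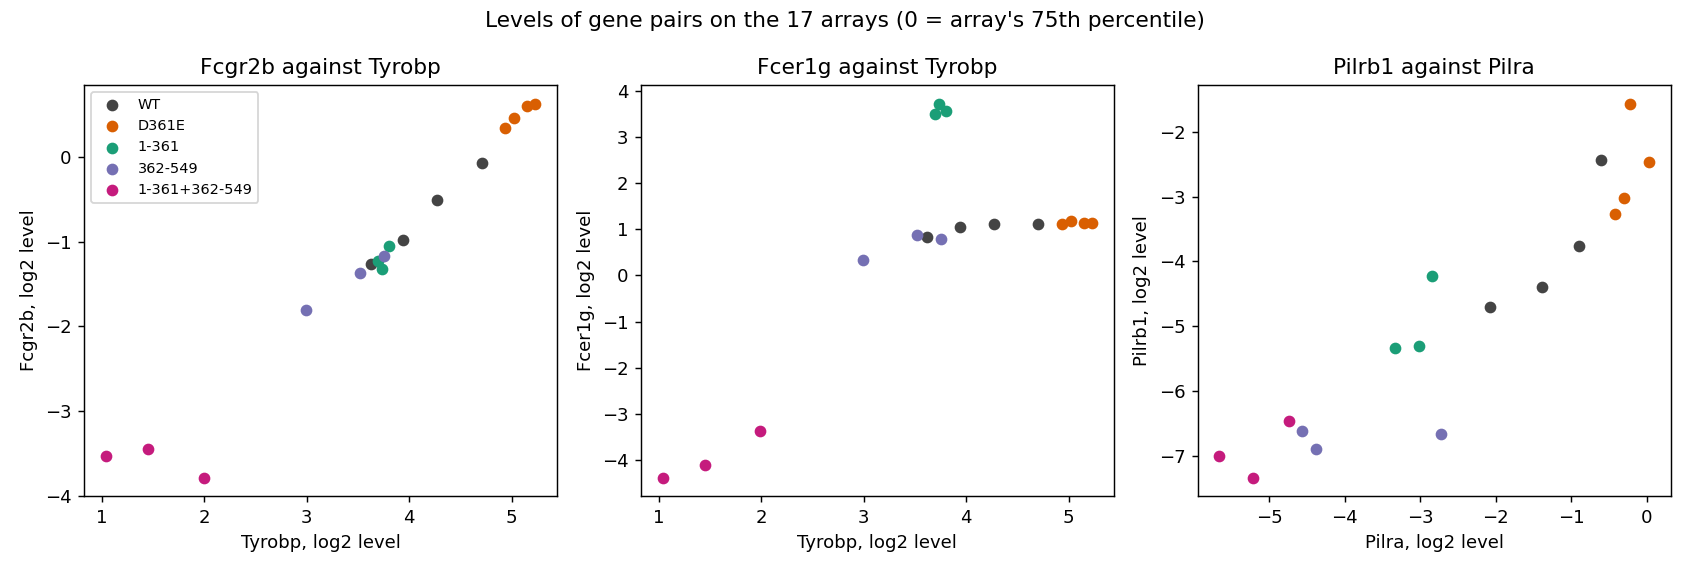
Log2 levels of gene pairs on the 17 arrays, coloured by construct, with Fcgr2b against Tyrobp, Fcer1g against Tyrobp, and Pilrb1 against Pilra (0 on each axis is the 75th percentile of the array). Fcgr2b and Tyrobp place the constructs in the same order, while Fcer1g sets 1-361 apart at a Tyrobp level that overlaps with WT.

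Fcgr2b, the inhibitory Fc gamma receptor, placed the constructs in the same order as Tyrobp. Its 10 spots, at chr1:172890988-172891047 (mm9), gave levels of -1.27, -0.98, -0.51 and -0.07 in WT and of 0.35, 0.63, 0.60 and 0.46 in D361E. They gave -1.32, -1.05 and -1.23 with 1-361, -1.80, -1.36 and -1.17 with 362-549, and -3.45, -3.53 and -3.79 with both fragments. D361E lay above every other array and 1-361+362-549 below every other array, and the 2 single fragments overlapped with each other and with WT.

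With both fragments Fcgr2b differed from WT by -2.88 ± 0.23 (7.38-fold lower, adjusted p = 1.29e-06), and from D361E by -4.10 ± 0.23 (17.2-fold lower, 1.88e-08). Against 1-361 it was -2.39 ± 0.25 (2.00e-05) and against 362-549 -2.14 ± 0.25 (4.89e-05), and both of these calls ended under normexp background correction (0.0585 and 0.0822). Under normexp both fragments differed from WT by -1.75 and from D361E by -2.86, both called. The difference from WT was -2.70 with slide as a block (adjusted p = 0.00246) and -2.26 on the 1 slide that held both groups. Between D361E and WT, Fcgr2b was called 1.22 ± 0.22 higher (2.33-fold, adjusted p = 0.0192). That call ended with slide as a block (1.33, adjusted p = 0.27), with differences of 0.70 and 1.73 on the 2 slides that held both groups. It also ended without any 1 of D361E replicates 2 and 3 and WT replicates 1 and 2, and the adjusted p ran up to 0.445 over the alternatives. Against D361E, 1-361 was -1.72 ± 0.23 (adjusted p = 0.00125) and 362-549 was -1.96 ± 0.23 (0.000192), the first lost under normexp background correction (0.0739).

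Fcgr3, the low-affinity activating receptor of macrophages, neutrophils and mast cells, was not called in any of the 10 contrasts. Its level was 1.88, 2.37, 3.09 and 2.33 in WT, and 1.50, 2.00, 2.15 and 1.96 in D361E. It was 1.73, 2.06 and 1.36 with 1-361, 0.93, 1.72 and 2.66 with 362-549, and 1.76, 1.78 and 2.43 with both fragments. The 5 groups overlapped, and 362-549 was the most scattered, with an SD of 0.86. The 95% interval of 1-361+362-549 minus WT ran from -1.19 to 0.33, so a fall of the size seen for Fcgr2b lay outside it and a smaller one did not.

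Fcgr4, an activating receptor of mouse monocytes and neutrophils, was low with both fragments. It was -3.63, -3.37, -3.45 and -3.48 in WT and -4.95, -5.65 and -5.03 with both fragments, where 1 of 3 arrays was well above background. The other 10 arrays ran from -3.98 to -3.29, so the 1-361+362-549 arrays lay below all others. The difference from WT was -1.73 ± 0.20 (3.32-fold lower, adjusted p = 4.31e-05), or -1.47 with slide as a block (0.0187) and -2.02 on the 1 slide that held both groups. Under normexp background correction it was -0.72 and not called (adjusted p = 0.714). Both fragments were also called lower than D361E (-1.57 ± 0.20, 7.40e-05), 1-361 (-1.53 ± 0.21, 0.000286) and 362-549 (-1.44 ± 0.21, 0.000376), and each of these calls ended under normexp (0.811, 0.863 and 0.867). The last also ended with slide as a block (-1.08, 0.131).

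Fcgr1, the high-affinity receptor for monomeric IgG, was lowest with the N-terminal fragment alone. It was -1.96, -2.19, -1.74 and -1.84 in WT, -2.99, -2.60 and -3.37 with 1-361, and -2.33, -2.34 and -1.55 with both fragments. D361E ran from -2.41 to -2.03 and 362-549 from -2.53 to -2.46. The 1-361 arrays lay below every other array, and both fragments together overlapped with WT. The difference of 1-361 from WT was -1.05 ± 0.21 (2.08-fold lower, adjusted p = 0.0236), and 1-361+362-549 was 0.91 ± 0.22 above 1-361 (0.0185). Each call ended with slide as a block (adjusted p = 0.281 and 0.111). The first also ended without any 1 of 1-361 replicates 1 and 3 and WT replicates 1, 3 and 4 (adjusted p up to 0.573 over the alternatives), and the second without 1-361 replicate 1 or 3 (up to 0.148).

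Of the 4 Fc gamma receptors, then, Fcgr2b and Fcgr4 were called lower than WT with both fragments, a contrast that called 5.13% of all genes, while Fcgr1 (-0.14 ± 0.21, adjusted p = 0.763) and Fcgr3 (-0.43 ± 0.36, 0.566) were not. Fcgr2b, Fcgr4 and Fcgr3 are neighbours on chromosome 1, with the Fcgr4 probe at chr1:172959738-172959797 (mm9) between the other 2. Upstream windows are shown for Fcgr4 and Fcgr3 because these neighbours both hold an NF-kB consensus match, and Fcgr4 was called with both fragments while Fcgr3 was not. Each is the 250 bases before a transcript start on the gene's own strand, from RefSeq on GRCm38.p6, at chr1:171018676-171018925 (plus strand) and chr1:171059404-171059653 (minus strand), with motif matches in capitals.
Fcgr4 upstream: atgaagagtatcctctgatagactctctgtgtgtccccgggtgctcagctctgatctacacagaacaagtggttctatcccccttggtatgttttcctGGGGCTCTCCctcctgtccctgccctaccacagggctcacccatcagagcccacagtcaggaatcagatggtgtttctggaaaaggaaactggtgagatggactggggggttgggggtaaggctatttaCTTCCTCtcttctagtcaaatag
Fcgr3 upstream: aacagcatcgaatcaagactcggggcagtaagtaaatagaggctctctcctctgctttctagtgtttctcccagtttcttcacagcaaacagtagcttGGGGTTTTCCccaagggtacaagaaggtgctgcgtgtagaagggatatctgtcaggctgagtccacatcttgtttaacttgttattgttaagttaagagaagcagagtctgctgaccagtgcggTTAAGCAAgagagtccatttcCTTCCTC
The search covered both strands for the NF-kB consensus, GAGGAAG (PU.1) and TTGCNNAA (C/EBP), with no matches overlapping in these windows. The NF-kB match begins 152 bases before the start in both genes, and GAGGAAG is read on the other strand in both. Windows were found for 7 of the 10 genes, 2 with the NF-kB consensus, 4 with GAGGAAG and 3 with TTGCNNAA, beside 3.9%, 10.6% and 9.56% of 32851 windows of the same length. A match is a description of letters and no evidence of binding.

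Pilra and Pilrb1 encode a receptor pair on chromosome 5, Pilra with an ITIM and Pilrb1 signalling through the Tyrobp adaptor. Group means of both genes were highest in D361E and lowest in 1-361+362-549. For Pilrb1 that lowest place is an order among dim arrays. The difference from 362-549 was -0.21 ± 0.53, not called (adjusted p = 0.817), and 0.11 with slide as a block. The brightest Pilra probe read -2.07, -1.39, -0.89 and -0.60 in WT and -0.42, 0.03, -0.29 and -0.22 in D361E. It read -2.84, -3.02 and -3.33 with 1-361, -4.38, -4.57 and -2.73 with 362-549, and -5.21, -4.73 and -5.66 with both, the last 2 groups with 1 of 3 arrays each well above background. D361E lay above every WT array, and all fragment arrays lay below WT.

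Pilrb1 read -4.71, -4.39, -3.76 and -2.44 in WT and -3.27, -2.46, -3.02 and -1.57 in D361E. It was -4.23, -5.31 and -5.33 with 1-361 (1 of 3 well above background), and between -7.33 and -6.46 on the 6 arrays with 362-549 or both fragments, none of them well above background. The WT arrays thus overlapped with D361E above and with 1-361 below, and the 6 dim arrays lay below all others.

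The lower values of both genes with 362-549 than with WT were known when the genes were picked, and stand here with no test. Pilra differed by -2.65 ± 0.40 there (6.29-fold lower), and Pilrb1 was at least 1.77-fold lower, a bound set against the lowest signal well above background on each dim array, or the probe's own where higher. Within slides the Pilra difference ran from -3.78 to -1.34, and under normexp it was -1.60. With both fragments Pilra differed from WT by -3.96 ± 0.40 (15.6-fold lower, adjusted p = 1.52e-05), by -3.54 with slide as a block (0.00817) and by -2.66 on the 1 slide that held both groups. With 1 of 3 arrays with both fragments well above background, that size rests mostly on dim values, and under normexp it was -1.74 (0.0407). Pilrb1 was at least 2.63-fold lower than WT (adjusted p = 0.000997), a call that ended with slide as a block (0.101) and under normexp background correction (0.862).

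Against D361E, Pilra differed by -2.84 ± 0.40 with 1-361 (7.15-fold lower, adjusted p = 0.00186), by -3.67 ± 0.40 with 362-549 (12.7-fold lower, 9.40e-05) and by -4.98 ± 0.40 with both (31.5-fold lower, 8.36e-07). The last 2 groups had 1 of 3 arrays each well above background, and under normexp the 3 differences were -2.09, -2.41 and -2.55 (0.0474, 0.011 and 0.00117). Pilrb1 was at least 4.19-fold lower with 362-549 (adjusted p = 0.000179) and at least 6.22-fold lower with both fragments (2.78e-05), and the calls ended under normexp background correction (1.00 and 0.352). The 362-549 values of both genes were known when the genes were picked, so nothing is read from their p-values with 362-549. With 1-361 Pilrb1 differed from D361E by -2.38 ± 0.49 (0.0288), a call that ended with slide as a block (0.256), under normexp (1.00) and without any 1 of 4 arrays, D361E replicates 2 and 4 and 1-361 replicates 2 and 3. D361E itself was 1.02 ± 0.37 above WT for Pilra and 1.25 ± 0.46 above for Pilrb1, neither called (adjusted p = 0.693 and 0.683).

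Among the fragment lines, Pilra with both fragments differed from 1-361 by -2.14 ± 0.43 (adjusted p = 0.00615), a call that ended with slide as a block (0.0537) and under normexp (0.662). Pilrb1 was at least 1.20-fold lower there (adjusted p = 0.0282). That call ended with slide as a block (0.16), with quantile normalization (0.0771), without scaling (0.0791), under normexp (0.985) and without any 1 of 1-361+362-549 replicates 1 and 2 and 1-361 replicates 1 and 2. Pilra with 362-549 differed from 1-361 by -0.83 ± 0.43 and was not called (adjusted p = 1.00), but was called with the mean of all its probes (-1.58, 0.0369). The 362-549 values used there were also known when the genes were picked.

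The other Pilra probes were tested in a fit over all probes. Probe 3 averaged -1.87 ± 0.73 (SD, n = 4) in WT, -0.76 ± 0.37 in D361E and -3.93 ± 0.15 (n = 3) with 1-361, and was not well above background on any array with 362-549 or both fragments. By it 1-361 differed from WT by -2.06 ± 0.34 (adjusted p = 0.0065), a contrast that the brightest probe, probe 4, missed in the same fit (0.0642), and both fragments were at least 10.2-fold lower (3.57e-07). Probe 3 also called 362-549 at least 1.65-fold lower than 1-361 (adjusted p = 0.0172), though low Pilra levels with 362-549 were known when the genes were picked. Probe 2, the one printed above, was at least 4.73-fold lower than WT with both fragments (adjusted p = 0.000234), and its difference with 1-361 was -1.25 ± 0.41 (0.404). Probes 2, 3 and 4 all had their highest group mean in D361E, followed by WT and 1-361. Probe 1 stayed between group means of -4.66 and -4.26 and was not tested, since no group had it well above background throughout.

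**Figure D3:**
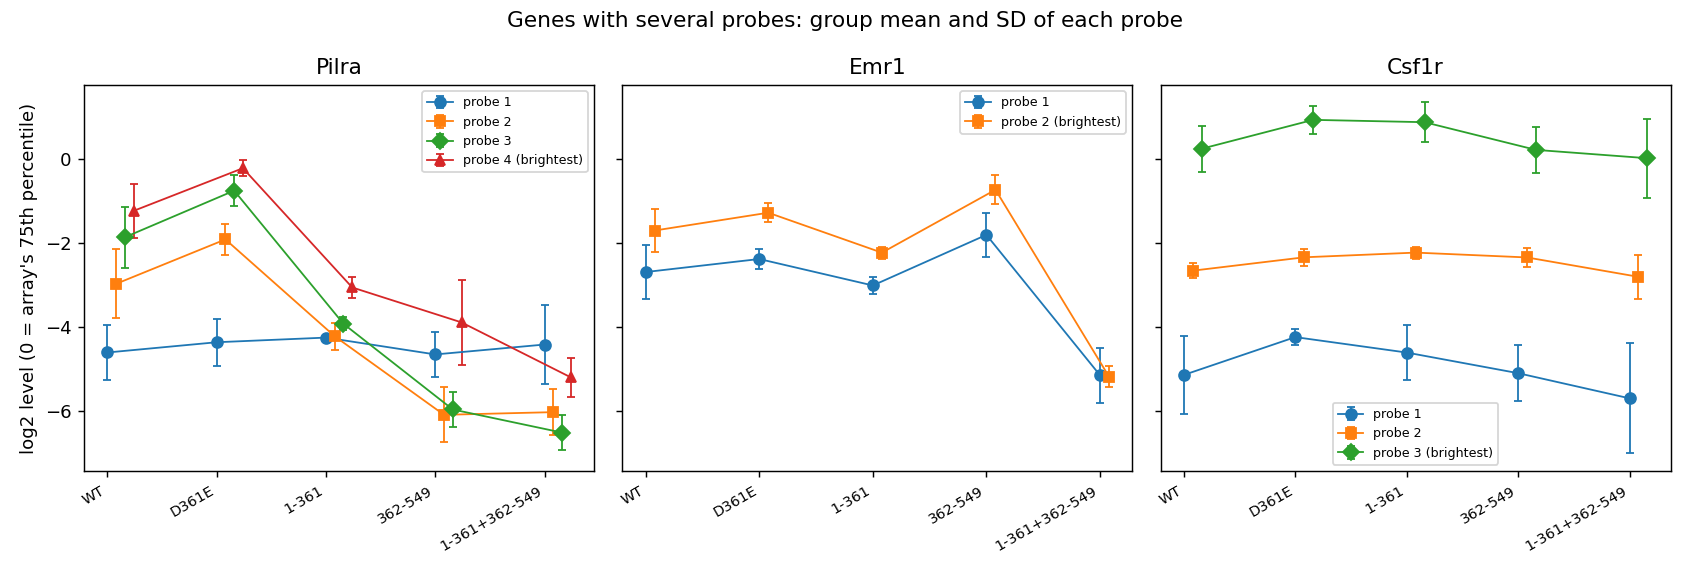
Group mean and SD of the log2 level of each probe of Pilra (4 probes), Emr1 (2) and Csf1r (3) by construct, with 0 at the 75th percentile of the array. Each probe is read against itself: Pilra probe 3 runs from -0.76 in D361E to -6.51 with both fragments, and the brightest Emr1 probe from -0.74 with 362-549 to -5.19 with both fragments, the lower value of each not well above background.

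The upstream windows of this pair are printed because both genes were called lower with both fragments. They lie at chr5:137836279-137836528 and chr5:137858050-137858299 (GRCm38.p6, minus strand, from RefSeq), and 192 of 196 aligned bases are identical.
Pilra upstream: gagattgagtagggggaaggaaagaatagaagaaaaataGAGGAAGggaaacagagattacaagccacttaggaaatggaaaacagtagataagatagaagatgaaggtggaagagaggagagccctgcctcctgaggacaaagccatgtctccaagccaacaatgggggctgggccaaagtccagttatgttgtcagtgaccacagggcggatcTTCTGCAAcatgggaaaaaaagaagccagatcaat
Pilrb1 upstream: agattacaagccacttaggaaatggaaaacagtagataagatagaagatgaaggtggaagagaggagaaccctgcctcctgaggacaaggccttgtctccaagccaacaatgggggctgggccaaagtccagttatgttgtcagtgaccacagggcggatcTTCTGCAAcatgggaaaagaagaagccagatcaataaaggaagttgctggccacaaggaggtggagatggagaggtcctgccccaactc
Capitals mark GAGGAAG, which lies in the Pilra window before the place in the shared stretch where the Pilrb1 window begins, so the matching place of Pilrb1 was not searched. They also mark TTGCNNAA, read on the other strand 35 bases before the Pilra start and 89 before the Pilrb1 start. Neither window holds the NF-kB consensus.

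Emr1 (Adgre1), the adhesion receptor behind the F4/80 macrophage stain, was the 1 gene of the 10 that was highest with 362-549. Its brightest probe, at chr17:57622868-57622927 (mm9), read -2.40, -1.76, -1.23 and -1.45 in WT and -1.61, -1.13, -1.13 and -1.25 in D361E. It read -2.11, -2.21 and -2.39 with 1-361, -1.09, -0.72 and -0.40 with 362-549, and -5.09, -5.47 and -5.00 with both fragments, the last 3 not well above background. By this probe the 362-549 arrays lay above all others, but their difference from D361E, 0.55 ± 0.25, was not called (adjusted p = 0.471). On the other probe the 362-549 mean was also the highest, and its arrays overlapped with WT and D361E. The 1-361+362-549 arrays lay below all others on both probes.

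By the brightest probe Emr1 was at least 10.6-fold lower than WT with both fragments (adjusted p = 2.61e-07), and at least 14.2-fold lower than D361E (6.30e-08). It was at least 7.37-fold lower than 1-361 (4.05e-06) and at least 20.8-fold lower than 362-549 (3.75e-08). The call against WT held with slide as a block (adjusted p = 0.000617) and ended under normexp (0.126), as did that against 1-361 (0.317). The other probe, probe 1, was well above background on 2 of these 3 arrays and differed from WT by -2.46 ± 0.35 (0.000377).

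Between the single fragments Emr1 was 1.50 ± 0.26 higher with 362-549 than with 1-361 (2.82-fold, adjusted p = 0.0132). That call ended with slide as a block (0.512), without scaling (0.108), under normexp (1.00), with the mean of both probes (0.0812) and with only these 2 groups fitted (0.0509). It also ended without any 1 of 4 arrays, replicates 2 and 3 of each fragment. By probe 1 the same difference was 1.20 ± 0.37, not called in the fit over all probes (adjusted p = 0.352). Against WT the difference of the brightest probe with 362-549 was 0.97 ± 0.25 and was not called (adjusted p = 0.134). It was called with the round of title numbers as a block (1.02, 0.0217).

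Csf1r, the receptor for CSF1 and IL-34 that macrophages need to survive, was not called in any of the 10 contrasts. Its brightest probe, on chromosome 18, read -0.09, -0.35, 0.84 and 0.55 in WT and 1.24, 0.76, 1.17 and 0.53 in D361E. It read 1.22, 0.34 and 1.06 with 1-361, -0.01, 0.83 and -0.18 with 362-549, and 0.20, -1.01 and 0.84 with both fragments. All groups overlapped, and the arrays with both fragments had the widest spread, with an SD of 0.94. The 95% interval of 1-361+362-549 minus WT ran from -1.10 to 0.65. With slide as a block 1-361+362-549 was called lower than D361E (-0.98, adjusted p = 0.0303, against -0.91 ± 0.41 and 0.176 without it). Csf1r probe 2 had group means of -2.81 to -2.23 and no call, and probe 1 was not tested.

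The calls can be counted by contrast, beside the share of all genes called the same way. The contrasts share arrays, and the 4 against WT share the WT arrays. D361E against WT called 0.485% of all genes, and 1 of the 10 was higher, beside 0.308% of all genes called higher. With 1-361 against WT (0.714%), 1 was higher (Fcer1g, beside 0.4%) and 1 lower (Fcgr1, beside 0.315%). With 362-549 against WT (0.714%), 2 were lower (Pilra and Pilrb1, beside 0.452%), and since the choice of genes had used these values nothing is read from that count.

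With 1-361+362-549 against WT, which called 5.13% of all genes, 7 of the 10 were lower, beside 3.14%, and 0 were higher. The 3 not called were Fcgr1, Fcgr3 and Csf1r, and the median difference over the 10 was -2.76 as fitted and -2.19 with Pilrb1 and Emr1 at their bounds, against 0.04 over all genes. Against D361E (9.68%) 7 were lower, beside 5.37%, with a median of -3.75 as fitted and -3.11 with the same 2 genes at their bounds. Against 1-361 (11.1%) 7 were lower, beside 6.49%, and 1 higher (Fcgr1), beside 4.66%. Against 362-549 (14.6%) 5 were lower, beside 8.91%. Fcgr4, Pilra, Pilrb1 and Emr1, counted among the 7 lower than WT, passed the dim filter only through other groups. With both fragments they were well above background on 1, 1, 0 and 0 of 3 arrays. A filter for probes well above background on all arrays does not test them, and left 3 calls against WT.

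In 1-361 against D361E (1.02%), 1 gene was higher (Fcer1g, beside 0.531%) and 4 were lower (Tyrobp, Fcgr2b, Pilra and Pilrb1, beside 0.492%). In 362-549 against D361E (1.28%), Tyrobp, Fcgr2b, Pilra and Pilrb1 were lower, which makes 4 beside 0.872%. The 362-549 values of Pilra and Pilrb1 had been used in the choice of genes. Between the single fragments (0.629%), 362-549 had 1 higher (Emr1, beside 0.229%) and 1 lower (Fcer1g, beside 0.4%). Since the genes were picked with their levels known, these shares are not evidence about the set.

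**Figure D4:**
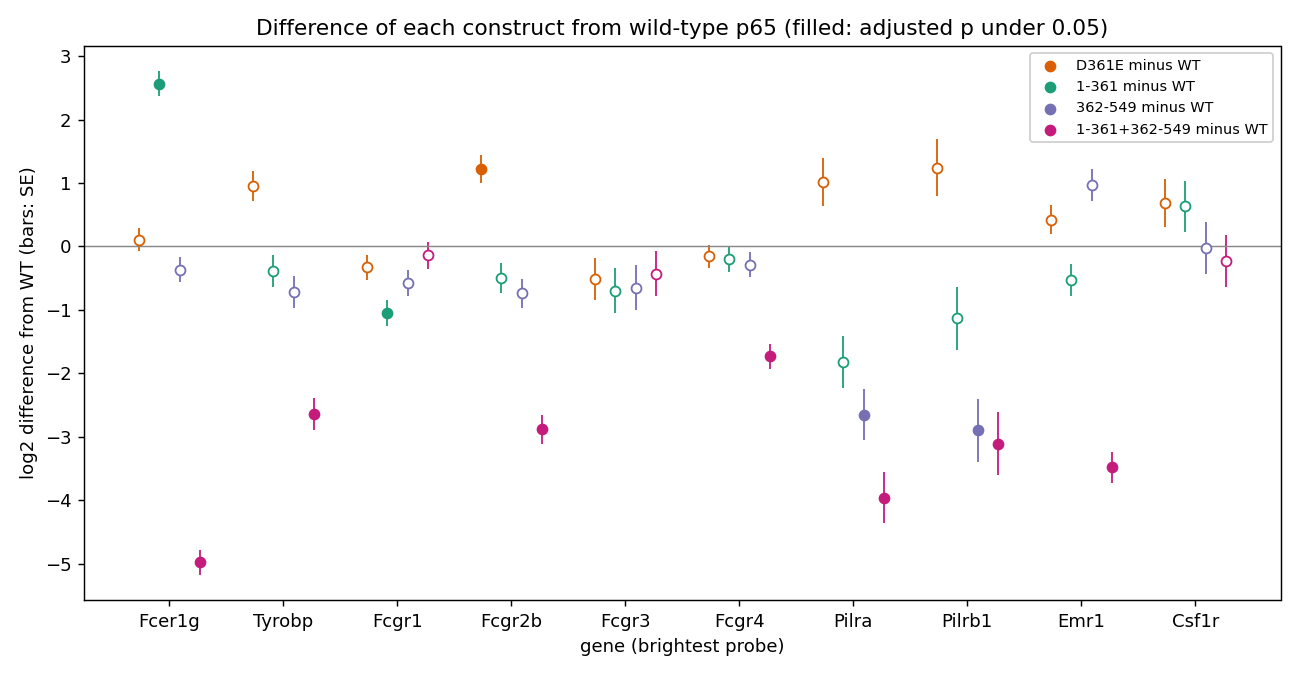
Log2 difference of each construct from WT for the 10 genes (points, with SE bars), filled where the adjusted p over all genes was under 0.05. The filled points with 1-361+362-549 all lie below 0, from -1.73 for Fcgr4 to -4.98 for Fcer1g, (Pilrb1 and Emr1 there are fitted values against arrays not well above background), and the 2 filled points above 0 are Fcer1g with 1-361, at 2.57, and Fcgr2b with D361E, at 1.22.

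Of 28 other receptors listed that pair with these adaptors, 14 were tested. With both fragments against WT, which called 5.13% of all genes and 3.14% lower, 5 of the 14 were called lower and 1 higher, with a median difference of -0.59 against 0.04 over all genes. Cd200r3 was at least 25.4-fold lower (adjusted p = 9.50e-09) and Fcer1a, the IgE-binding chain that needs Fcer1g, at least 3.14-fold lower (9.93e-07). Cd200r4 differed by -1.70 ± 0.32 (0.00487) and Clec4d, a C-type lectin, by 0.53 ± 0.11 (0.0109). With 1-361 (0.714% of all genes called), 1 of the 14 was called, Fcer1a at least 2.31-fold lower than WT (0.000125), in the line where Fcer1g was called higher. With 362-549 (0.714%), 1 was called, Clec4e, the Mincle lectin, at -1.96 ± 0.21 (0.000146), and with D361E (0.485%) 0 of 14 were called.

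Among the other ITIM receptors, 1 of 10 tested was called lower with both fragments, beside 3.14% of all genes, Pirb at -2.50 ± 0.23 (adjusted p = 4.50e-06), and 0 in the other contrasts with WT. Of 29 kinases and adaptors downstream of ITAMs, 5 were called lower with both fragments, beside the same 3.14%, and 0 higher. The median difference was -0.24 in either list. Lat2, an adaptor of mast cell and myeloid signalling, was at least 23.6-fold lower (2.44e-08). Pik3cd differed by -1.44 ± 0.22 (0.000663), Lat by -0.97 ± 0.20 (0.00894) and Nfatc2 by -0.73 ± 0.16 (0.0122). With 362-549, Pik3r5 differed by -1.34 ± 0.18 (0.000957), and with D361E or 1-361 0 of the 29 were called.

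Of 14 phosphatases and other brakes (median -0.12), 3 were called lower with both fragments, beside 3.14% of all genes, Sla2 at -1.27 ± 0.18 (adjusted p = 0.000429), Dok2 at -0.69 ± 0.14 (0.00618) and Dok3 at -0.65 ± 0.17 (0.0375), and 0 in the other contrasts with WT. Of 5 further Fc-binding proteins tested, 0 were called in the 4 contrasts with WT. In the CSF1 axis and among myeloid transcription factors, 5 of 11 were called lower with both fragments (median -0.77), beside the same share. The ligands of Csf1r were among them, Csf1 with means of -1.57 ± 0.34 (SD, n = 4) in WT and -3.57 ± 0.28 (n = 3) with both fragments (limma adjusted p = 7.79e-05). Il34 differed by -2.14 ± 0.30 (0.000327), Cebpb by -1.26 ± 0.18 (0.000373) and Id2 by -2.12 ± 0.31 (0.000485). With D361E, Cebpe differed by 0.92 ± 0.18 (0.0337). With slide as a block the calls of Cd200r4 (0.13), Clec4d (0.269), Pik3cd (0.0508), Lat (0.22), Nfatc2 (0.271), Dok2 (0.29), Dok3 (0.203) and Cebpe (0.549) ended.

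Some markers of other cell types were called in the same contrasts. Of 7 mast cell and basophil markers tested, 4 were called lower with both fragments and 0 higher, beside 3.14% of all genes called lower. Cpa3 differed by -7.37 ± 0.35 and Cma1 by -5.56 ± 0.26 (adjusted p = 2.48e-09 for each), Mcpt4 by -3.50 ± 0.34 (9.74e-06), and Mcpt8 was at least 1.85-fold lower (0.0198). With both fragments Cpa3 was well above background on 1 of 3 arrays and Mcpt4 on 2, so their sizes rest in part on dim values. The summed level of the 7 tested markers, in multiples of the 75th percentile, ran from 46.3 to 62.0 in WT and from 28.7 to 37.2 with both fragments. In WT that sum rests mostly on markers that were not called, since Cma1, the brightest of the 4 called, had a mean log2 level of 2.82. Kit and Mcpt1 were not well above background on any array of any group.

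Of 9 macrophage and monocyte markers tested, with both fragments Aif1 differed by -0.75 ± 0.20 (adjusted p = 0.0437) and Clec7a by 1.23 ± 0.27 (0.0147), and both calls ended with slide as a block (0.635 and 0.0886). The summed level of the 9 tested markers ran from 9.94 to 16.7 in WT and from 6.62 to 12.2 with both fragments. In the same contrast, which called 5.13% of all genes, 0 of 4 neutrophil, 0 of 2 B cell and 0 of 1 natural killer cell markers were called. Called lower were 1 of 3 dendritic cell and 1 of 2 eosinophil markers. Of 5 T cell markers 1 was called higher and 2 lower, and of 6 erythroid markers 2 higher and 1 lower. The calls of Ccr7 (adjusted p = 0.00246), Epx (0.0309), Cd3d (0.00857) and Cd5 (0.0398) held with slide as a block. The erythroid calls of Klf1 (adjusted p = 0.199), Hbb-bt (0.0783) and Epor (0.2925) and the T cell call of Cd3g (0.0553) ended with slide as a block.

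Markers were called in the other contrasts with WT too. With 1-361, where Fcer1g was called higher, 2 of 5 T cell markers were called higher. Cd3d differed by 0.63 ± 0.11 (adjusted p = 0.00864) and Cd3g by 1.99 ± 0.39 (0.0227). For Cd3g only 2 of the 4 WT arrays gave a signal clear of background, so its size rests in part on dim values. Both T cell calls ended with slide as a block (adjusted p = 0.203 for Cd3d and 0.0987 for Cd3g). The summed level of the 5 tested T cell markers ran from 4.00 to 5.93 in WT and from 6.23 to 8.27 with 1-361. Also called there were 1 macrophage marker lower, 1 mast cell marker higher and 1 lower, and 1 erythroid marker higher, beside 0.714% of all genes. Of these further calls, the erythroid one held with slide as a block (adjusted p = 0.000689) and the others ended (0.133 to 0.337).

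With D361E (0.485% of all genes), 2 of 7 mast cell markers were called lower, and 1 of 9 macrophage, 1 of 2 eosinophil and 1 of 6 erythroid markers higher. With slide as a block the erythroid call held (adjusted p = 0.00923) and the others ended (0.1455 to 0.952). With 362-549 (0.714%), 2 of 9 macrophage, 1 of 4 neutrophil and 1 of 7 mast cell markers were called lower, and 1 of 5 T cell and 2 of 6 erythroid markers higher. The calls of Clec7a (adjusted p = 0.0263) and the erythroid Hbb-bt (1.1e-05) and Hbb-bs (0.00741) held there with slide as a block. Those of Aif1 (0.257), Cxcr2 (0.0817), Cma1 (0.0919) and Cd3g (0.0601) ended. The summed level of the mast cell markers ran from 35.5 to 60.9 in D361E, and that of the macrophage markers from 13.7 to 19.7 with 362-549. The part of these markers in the levels of the 10 genes was not tested.

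The genes most like each member in level over the 17 arrays were found by Pearson's r, which here rests largely on differences between the 5 groups and carries no p. Tyrobp and Fcgr2b had the same 2, Slpi (0.98 for each) and Tmem273 (0.97 for each). Slpi averaged 0.37 in WT, 1.48 in D361E and -2.56 with both fragments. Pilra and Pilrb1 shared Pkd2l1 (0.96 and 0.94), with Slpi next for Pilra (0.95) and Pilrb2 for Pilrb1 (0.93). A Pilrb2 probe matched the Pilrb1 probe at 41 of 49 bases, and whether both read the same transcripts was not tested. Neither Pilrb2 nor Pilrb1 was well above background on any array with 362-549 or both fragments. Fcer1g was nearest to Pros1 (0.96) and Cd3d (0.96), Emr1 to Abcg1 and Iqcf5 (0.97 for each), and Fcgr4 to Gatsl2 and Gpr34 (0.94 for each). Fcgr3 was nearest to Ubxn7 and Bri3 (0.92 for each), Csf1r to L1cam (0.94) and Fbxw13 (0.93), and Fcgr1 to Dstyk and Niban1 (0.81 for each).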

How the data were processed

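The 17 arrays measured RNA of DA1-3b cells with 5 forms of p65. The deposited files hold spot intensity on a linear scale, read, per the file headers, with Agilent Feature Extraction 10.7.3.1 (protocol GE1_107_Sep09, design 026655, mm9 coordinates). The values of the deposited series matrix equalled those signals.

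Processed signals were turned to log2 and scaled to the 75th percentile of each array. Spots of a probe were averaged without controls or outlier flags (132 probes were lost), and a probe entered if any group had it well above background throughout (19773 probes). Symbols came from RefSeq accessions (GRCm38.p6, 27508 probes named), and the brightest probe stood for a gene. limma 3.58.1 (lmFit, eBayes; R 4.3.3) fitted 1 model over 5 groups with 10 contrasts, adjusted by Benjamini-Hochberg over 15258 genes and called at 0.05. The fit was tested on simulated data with genes changed in 1-361+362-549. Against WT it called 50 of 100 genes changed by 1 log2 unit and 89 of 100 changed by 2. It also called 12 unchanged genes. The simulated noise was independent between arrays, with no shared slide or round effects, so these rates may not hold for the real arrays. A probe not well above background on any array of a group has a bound there ("at least"). The alternatives were normexp background correction (offset 50), quantile normalization, no scaling, other dim filters, the mean of all probes, slide and title-number blocks, each array left out, and the 2 groups alone.

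Named were all members, up to 4 called genes per list and contrast with WT by smallest adjusted p, and the 2 genes most like each member. Members and lists were chosen with earlier results of these data known. Of the listed genes, Ceacam1, Ly6c2 and Ncr3 were not matched on the array. The results of 1 marker list are not reported here.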

Additional observations from a re-analysis of the deposited data

Results flagged for a closer look

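In Fcer1g, D361E replicate 4 stood apart from the other 3 D361E arrays. Its level was 1.173 against 1.127 for the nearest, and that gap was 0.9191 of the range of the group. The group is narrow, with an SD of 0.02. In all, 20 groups of 4 arrays were examined, and chance sets apart about 1 in 20.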

How the results depend on the processing

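Of 100 pairs of gene and contrast, 43 were called, 19 of them in every alternative that tested the gene, and 36 with each array left out in turn; 0 called pairs changed sign. Slide as a fixed block ended 13 calls and normexp 21, and 14 uncalled pairs were called under some setting. Without scaling, the median of all genes moved to between -0.361 and 0.578 over the contrasts, and the share of higher among all called genes from 63.5% to 42% (D361E against WT), 56% to 44.2% (1-361 against WT), 36.7% to 21.2% (362-549 against WT), 32.1% to 19.3% (362-549 against D361E), 36.5% to 21.2% (362-549 against 1-361) and, for 1-361+362-549, from 44.5% to 86.2% against D361E, 41.8% to 86.3% against 1-361 and 38.8% to 94.2% against 362-549. Called genes of the 10 were as follows. D361E against WT (1) had 0 without scaling, with normexp, without a dim filter, with slide as a block and with the 2 groups alone. For 1-361 against WT (2) each of normexp, no filter, slide block and the 2 groups alone gave 1. For 362-549 against WT (2, both used in the choice of genes), normexp, the filter on all arrays and the 2 groups alone gave 0, and the slide block 1. Against WT, 1-361+362-549 (7) had 4 with normexp and 3 with the filter on all arrays, and the F-test (8) had 4 under each. Against D361E, 1-361 (5) had 3 with normexp, that filter or the slide block, 362-549 (4) had 2 and 1-361+362-549 (7) had 3 with that filter. For 362-549 against 1-361 (2), no scaling, normexp, that filter, the slide block and the 2 groups alone gave 1. For 1-361+362-549 against 1-361 (8) normexp gave 2, that filter 4 and the slide block 5, and against 362-549 (5) each gave 3. The filter on all arrays tests fewer of the genes, leaving out Fcgr4, Pilra, Pilrb1 and Emr1. The cause of the other changes was not tested. With single arrays left out, D361E against WT ranged from 0 to 2, 1-361 against WT from 1 to 3, 1-361 against D361E from 3 to 6 and 362-549 against 1-361 from 1 to 2; 1-361+362-549 had 7 against WT each time, 7 to 8 against D361E, 6 to 9 against 1-361 and 5 to 6 against 362-549. Taking the round that the title numbers form as a replicate block raised D361E against WT to 3 genes, adding Tyrobp (adjusted p = 0.0322) and Pilrb1 (0.0145). It also added Emr1 in 362-549 against WT (0.0217) and in 1-361 against D361E (0.0285), Pilrb1 in 362-549 against 1-361 (0.00295) and Pilra in 1-361+362-549 against 362-549 (0.0259), and raised the calls over all genes for 1-361+362-549 against WT from 783 to 4687. Arrays of a round deviated together in part: 24 of 31 pairs correlated above 0.1 (median 0.383), beside 19 of 84 pairs of different rounds (median -0.135). Of the 17 arrays, 12 correlated best with their own round, but in round 2 only WT replicate 2 did. The labels do not say what the numbers stand for. Signals near background limit Pilrb1, Fcgr4 and the lowest Pilra and Emr1 values.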
